A study of Mus musculus with 12 samples.

Results

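The 10 genes described here belong to the EGF receptor pathway and to the feedback that restrains MAP kinases. They were taken by their symbols from the table of gene counts, through the Ensembl identifiers that the annotation pairs with them, and comprised 3 ligand genes (Areg, Ereg and Hbegf), the receptor inhibitor gene Errfi1, 2 Sprouty genes (Spry2 and Spry4) and 4 genes of dual-specificity phosphatases (Dusp1, Dusp4, Dusp5 and Dusp6). These are 10 of the 54838 genes in the table, and all 10 passed the filter on low counts, as did 15938 genes in all. RNA of the ileum of female C57BL/6J mice was sequenced in 12 libraries.

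The mice drank normal water or water with 25 mM ZnSO4 for 7 days and were then injected with PBS or with 200 µg of dexamethasone (Dex), a synthetic glucocorticoid. The ileum was taken 2 h after the injection, which gave 4 groups of 3 mice, named water + PBS, water + Dex, ZnSO4 + PBS and ZnSO4 + Dex and labelled as biological replicates of the same strain. The sources used here do not say which mice shared a cage, and the p-values below measure only the spread between these mice. Control mice of each water were injected too, with PBS alone. Whole ileum was used, so muscle, vessels and immune cells were included beside the epithelium, and in such bulk tissue fewer cells of a type and less RNA per cell cannot be told apart.

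The EGF receptor sits on gut epithelial cells and is switched on by ligands that are shed from the surface of neighbouring cells. It drives the Ras, Raf, MEK and ERK cascade, which promotes growth and repair of the epithelium. ERK activity in turn induces its own brakes. Errfi1 protein (also called Mig6) binds the receptor kinase and blocks it, Sprouty proteins hold back signalling between receptor and Raf, and dual-specificity phosphatases remove phosphate from the MAP kinases, with Dusp5 and Dusp6 acting on ERK and Dusp1 acting widely, p38 and JNK included. Glucocorticoids are known to induce Dusp1 and Errfi1 in many cell types.

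Total counts lay between 10760132 and 11827487 per library. All 7 genes listed as a check of Dex (Ddit4, Fkbp5, Pdk4, Per1, Sgk1, Tsc22d3 and Zbtb16) rose with Dex in mice of both waters, and the metallothionein genes Mt1 and Mt2 and the zinc exporter gene Slc30a2 rose with ZnSO4 while the importer gene Slc39a4 fell. Markers of epithelium summed to 8430 to 11910 CPM (counts scaled to library size) in the 12 libraries, with all 6 detected. Summed B cell markers ranged from 11.7 to 576 CPM, within as well as between groups. Goblet cell markers summed to 12630 to 12780 CPM in water + PBS and to 16300 to 19230 CPM in ZnSO4 + Dex, and 1 of 6 was called higher with ZnSO4 under each injection. T cell markers summed to 73.8 to 131 CPM in the water groups and 36.1 to 76.9 CPM in the ZnSO4 groups, and 1 of 7 was called lower with ZnSO4 in PBS mice and 3 in Dex mice. Of 5 stem cell markers 2 were called lower with Dex in each water. Of 7 enterocyte markers 1 was called higher with Dex in each water. Their sums were 11750 to 14980 CPM in water + PBS and 15820 to 19360 CPM in water + Dex, and overlapped on ZnSO4. With Dex on ZnSO4, 2 of 6 macrophage markers and 1 of 3 tested mast cell markers were called higher. Over all genes 4.51% were called lower with Dex on water and 7.08% on ZnSO4, and 5.41% and 6.65% higher. With ZnSO4, 2.11% were called higher in PBS mice and 1.83% in Dex mice, and 2.54% lower under each injection. The part of these cell types in the values below was not tested.

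Promoter letters were read from RefSeq (GRCm38.p6) at 7 start sites of 6 of the 10 genes. The remaining genes were left out of the search, and whether RefSeq holds starts for them was not established. The motif counts below do not cover them. The cAMP response element, TGACGTCA, to which CREB binds, was found on either strand in 3 of these 7 stretches of 250 bases before a start, and in 1.55% of the 32851 promoters searched. It lay 143 bases before the start of Dusp1, 51 bases before the second start of Errfi1 and 61 bases before the start of Areg. This element was the one motif that several of these 6 genes shared. The 80 bases centred on each copy are shown 5′ to 3′ on the gene's strand, with the element in capitals.
Dusp1, chr17:26508572-26508651, minus strand: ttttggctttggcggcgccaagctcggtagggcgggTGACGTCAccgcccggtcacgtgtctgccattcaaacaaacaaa
Errfi1, chr4:150854983-150855062, plus strand: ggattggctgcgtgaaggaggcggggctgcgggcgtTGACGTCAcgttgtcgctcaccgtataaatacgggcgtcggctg
Areg, chr5:91139502-91139581, plus strand: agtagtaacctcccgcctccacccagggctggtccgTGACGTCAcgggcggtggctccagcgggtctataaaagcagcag

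The core of the glucocorticoid response element, ACANNNTGT, matched 1 of the 7 stretches, that of Dusp6, 102 bases before its start, and 5.84% of all promoters. The shorter single site AGAACA was in none of the 7 and in 16.1% of all. The AP-1 site TGACTCA was in none of the 7 and in 4.46% of all promoters. The metal response element core TGCGCNC was in the Spry2 stretch and in 12.5% of all, and its form with A, TGCACNC, in none of the 7 and in 10.4% of all. These windows are short, the palindromic motifs read the same on both strands, and a match of letters is not a bound site.

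Per length of transcript, as RPKM (reads scaled to library size and to kilobases of exon) averaged over the 12 mice, Errfi1 had the highest level of the 10 genes at 48.7, followed by Dusp6 at 22.7. Ereg followed at 7.35, Dusp1 at 6.84, Spry2 at 5.92, Hbegf at 4.79, Areg at 4.76 and Dusp5 at 4.10. Dusp4 at 2.02 and Spry4 at 1.26 were lowest. Values below are normalised read counts, that is, counts scaled to the mean library size, and log2 fold changes (LFC) are from edgeR's quasi-likelihood test with Benjamini-Hochberg adjustment over all 15938 genes.

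**Figure D1:**
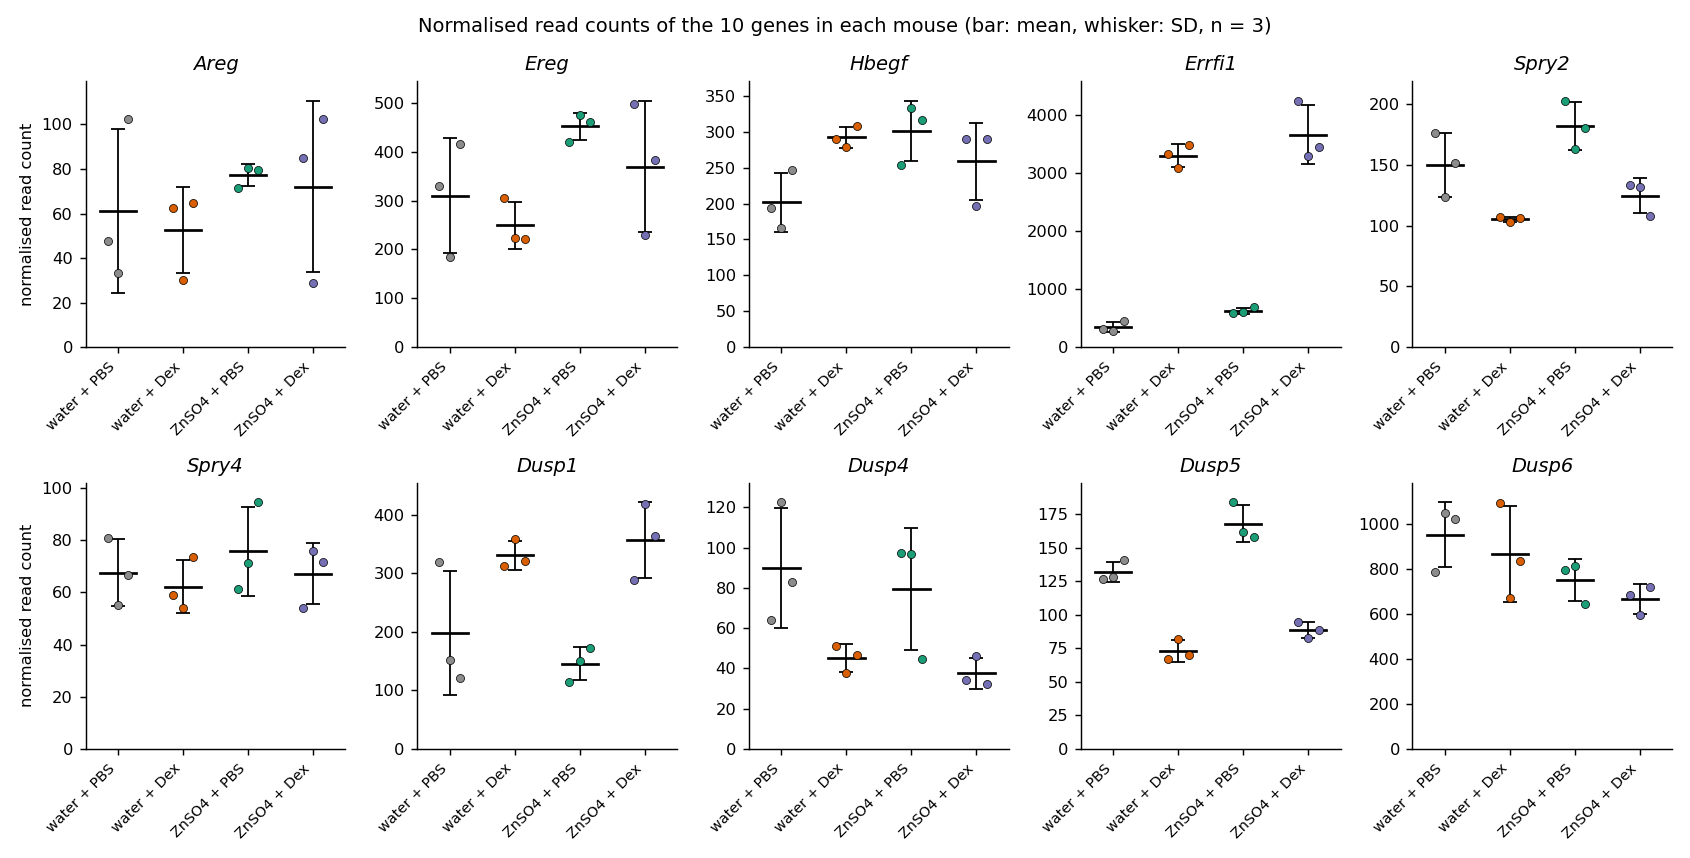
Normalised read count of each of the 10 genes (vertical axes, each from 0) in the 4 groups, with 1 point per mouse, bars at the group mean and whiskers of 1 SD (n = 3). Errfi1 stood at 3092 to 4246 in the 6 Dex mice and at 284 to 688 in the 6 PBS mice, while the ligand genes overlapped between most groups.

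Which of these genes changed within 2 h of Dex in mice on normal water was asked first. Errfi1 rose 9.46-fold and Dusp5 fell 1.80-fold, and no other of the 10 genes passed the test. That is 1 of 10 higher, where 5.41% of all tested genes were called higher, and 1 of 10 lower, where 4.51% were called lower. In the ZnSO4 mice Dex raised 2 of the 10, Errfi1 and Dusp1, beside 6.65% of all genes, and lowered 3, Dusp5, Dusp4 and Spry2, beside 7.08% of all genes. The median LFC of the 10 genes with Dex was -0.18 in water mice, against -0.014 over all tested genes, and -0.20 in ZnSO4 mice, against 0.0091.

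The receptor inhibitor gene Errfi1 (chromosome 4, 150853919 to 150868892, plus strand) had normalised counts of 316, 284 and 446 in the water + PBS mice and of 3335, 3092 and 3475 in the water + Dex mice. In the ZnSO4 + PBS mice it had 582, 600 and 688, and in the ZnSO4 + Dex mice 4246, 3294 and 3446. Every Dex mouse lay far above every PBS mouse, and every ZnSO4 + PBS mouse lay above every water + PBS mouse, whereas the Dex groups of the 2 waters overlapped. The Dex effect was an LFC of 3.24 ± 0.165 (SE) in water mice, adjusted p = 6.7e-07, and of 2.55 ± 0.159 in ZnSO4 mice, adjusted p = 2.1e-06. It ranked 41st in water mice and 112th in ZnSO4 mice among the 15938 genes by LFC. No single mouse decided these calls, since the LFC stayed between 3.11 and 3.46 in water mice and between 2.43 and 2.63 in ZnSO4 mice when each of the 12 libraries was left out in turn.

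Errfi1 was also the one gene of the 10 that passed the test for ZnSO4 in PBS mice, where 2.11% of all genes were called higher and 2.54% lower. Its LFC was 0.84 ± 0.156, a 1.79-fold rise, adjusted p = 0.013. The call was lost without water + PBS replicate 1, at an LFC of 0.79 and adjusted p = 0.06, without ZnSO4 + PBS replicate 3, at 0.76 and adjusted p = 0.058, and with only the groups compared in the fit, at 0.85 and adjusted p = 0.056. In Dex mice the LFC for ZnSO4 was 0.15, with a 95% interval from -0.18 to 0.48, which includes 0.

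Dusp1, an immediate early gene, lies on the minus strand of chromosome 17, at 26505590 to 26562128. It had 319, 152 and 122 normalised counts in the water + PBS mice and 312, 359 and 322 in the water + Dex mice. In the ZnSO4 + PBS mice it had 115, 150 and 172, and in the ZnSO4 + Dex mice 289, 418 and 363. Replicate 1 of water + PBS stood at the level of the Dex mice, so the groups overlapped on water but were apart on ZnSO4. The LFC with Dex was 1.29 ± 0.301 in ZnSO4 mice, a 2.45-fold rise, adjusted p = 0.014, and 0.74 ± 0.297 in water mice, adjusted p = 0.16. Without water + PBS replicate 1 the latter was 1.27, adjusted p = 0.0033, and without ZnSO4 + PBS replicate 1 the former was 1.15, adjusted p = 0.065. The immediate early gene Egr1, singled out after its values were seen, had 429 normalised counts in this same water + PBS mouse and 138 to 252 in all other mice. The interaction of ZnSO4 and Dex for Dusp1 was 0.55, with a 95% interval from -0.37 to 1.47 that includes 0.

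Of the phosphatase genes that act on ERK, Dusp5, whose nuclear protein is specific for ERK, was the most even within groups. Dusp5 (chromosome 19, 53529109 to 53542431, plus strand) had 126, 128 and 141 normalised counts in the water + PBS mice and 66.9, 82.1 and 70.2 in the water + Dex mice. The ZnSO4 + PBS mice had 184, 162 and 158, and the ZnSO4 + Dex mice 94.3, 82.6 and 88.6. All 4 groups were apart from one another, in the order ZnSO4 + PBS, water + PBS, ZnSO4 + Dex and water + Dex. Dex lowered Dusp5 by an LFC of -0.85 ± 0.122 in water mice, adjusted p = 0.000998, and of -0.92 ± 0.12 in ZnSO4 mice, adjusted p = 0.00037, and both calls were kept whichever library was left out. The ZnSO4 effect was an LFC of 0.35 in PBS mice, adjusted p = 0.12, and 0.28 in Dex mice, adjusted p = 0.25. Of its exonic bases 22.1% lie opposite an exon of the antisense gene AC137853.2, and the sources used here do not state whether counting used the strand, so reads of the pair may be mixed.

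Dusp4, also a nuclear phosphatase of MAP kinases, lies on chromosome 8 at 34807297 to 34819894, plus strand. It had 64.2, 122 and 82.7 normalised counts in the water + PBS mice, and 51.3, 37.8 and 46.5 in the water + Dex mice. In the ZnSO4 + PBS mice it had 97.1, 97.0 and 44.5, and in the ZnSO4 + Dex mice 34.2, 46.1 and 32.0. The groups were apart on water, where the LFC of -0.99 ± 0.318 did not pass the test (adjusted p = 0.078), and overlapped on ZnSO4, where the LFC of -1.08 ± 0.321 passed (adjusted p = 0.0455). The latter call was narrow: it was lost in 9 of the 12 fits that left out 1 library, with adjusted p up to 0.15, while its LFC stayed between -1.37 and -0.91. Among water + PBS mice, the one with the highest Dusp4 count also had the highest summed B cell markers, 576 CPM against 28.2 and 164, and the same held for water + Dex (202 CPM against 29.7 and 15.4) but not for the ZnSO4 groups. With the B cell marker level as a covariate, chosen after the data had been seen, the LFC in ZnSO4 mice was -0.76, adjusted p = 0.08.

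Dusp6, a cytoplasmic phosphatase of ERK, did not pass edgeR's test in any comparison of all 12 mice. Its normalised counts were 787, 1047 and 1020 in water + PBS, 1090, 669 and 836 in water + Dex, 794, 812 and 644 in ZnSO4 + PBS and 685, 594 and 720 in ZnSO4 + Dex. The LFC with Dex was -0.14 in water mice, with a 95% interval from -0.51 to 0.24, and -0.17 in ZnSO4 mice, with an interval from -0.55 to 0.20. Its ZnSO4 effects were -0.34 in PBS mice (adjusted p = 0.29) and -0.38 in Dex mice (adjusted p = 0.26). In each of the 4 groups the mouse with the highest Dusp6 count was also the one with the highest summed B cell markers, which were 576, 202, 428 and 63.1 CPM in these mice of water + PBS, water + Dex, ZnSO4 + PBS and ZnSO4 + Dex. None of the 7 B cell markers passed the test in any comparison of groups. With their level as a covariate the Dusp6 LFC with Dex in water mice was 0.0058, so its direction turned.

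**Figure D2:**
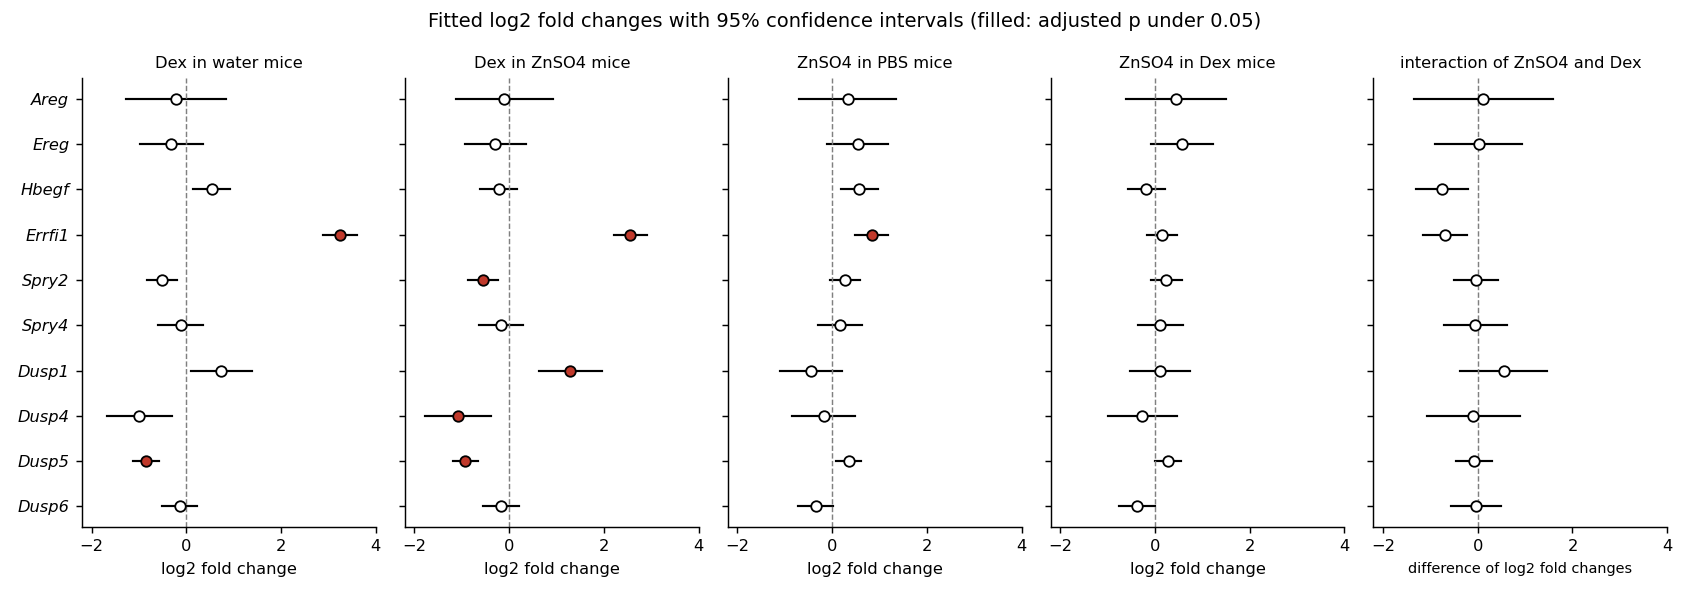
Log2 fold change of each gene (horizontal axes) for Dex in each water, for ZnSO4 in PBS and in Dex mice and for their interaction, with 95% confidence intervals from edgeR over all 12 libraries and filled points at adjusted p under 0.05. Errfi1 stands at 3.24 and 2.55 for Dex, and the filled points left of 0 are Dusp5 in both waters with Dusp4 and Spry2 in ZnSO4 mice.

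Of the 2 Sprouty genes, Spry2 had the higher level per length, 5.92 RPKM against 1.26 for Spry4. Spry2 (chromosome 14, 105891947 to 105896819, minus strand) had 176, 123 and 151 normalised counts in water + PBS and 107, 103 and 106 in water + Dex. In ZnSO4 + PBS it had 203, 163 and 181, and in ZnSO4 + Dex 134, 132 and 108. The Dex mice lay below the PBS mice of the same water without overlap. The LFC was -0.55 ± 0.146 in ZnSO4 mice, adjusted p = 0.028, and -0.51 ± 0.149 in water mice, adjusted p = 0.0505, so that near-equal effects fell on either side of the threshold. The call in ZnSO4 mice was lost in 4 of 12 fits, without replicate 1 or replicate 3 of ZnSO4 + PBS or of ZnSO4 + Dex, with adjusted p up to 0.11. Spry4 had between 53.9 and 94.5 normalised counts over the 12 mice, its groups overlapped in every comparison, and its LFCs lay between -0.17 and 0.17, with none past the test.

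To use all mice at once, the Dex effect was averaged over both waters, 6 mice against 6, a comparison added after the data had been seen. Errfi1 (LFC 2.90 ± 0.114) and Dusp1 (LFC 1.02 ± 0.211, adjusted p = 0.0047) rose. Dusp5 (LFC -0.89 ± 0.0858), Dusp4 (LFC -1.03 ± 0.226, adjusted p = 0.0063) and Spry2 (LFC -0.53 ± 0.104, adjusted p = 0.0033) fell. These were 2 of 10 higher and 3 of 10 lower, where 10.4% of all genes were called higher and 11.2% lower, and all 5 calls were kept whichever library was left out. The 3 ligand genes, Dusp6 and Spry4 did not pass, with LFCs from -0.30 for Ereg to 0.16 for Hbegf.

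The 3 ligand genes encode amphiregulin (Areg), epiregulin (Ereg) and the heparin-binding ligand (Hbegf), all made as membrane proteins and shed. Areg (chromosome 5, 91139599 to 91148432, plus strand) and its neighbour Ereg (91074622 to 91093646) did not change with Dex beyond the spread between mice. Areg had 47.7, 33.1 and 103 normalised counts in water + PBS, 62.4, 30.2 and 64.8 in water + Dex, 71.7, 80.5 and 79.7 in ZnSO4 + PBS and 85.0, 28.8 and 103 in ZnSO4 + Dex. Its counts spanned more than 3-fold within water + PBS and within ZnSO4 + Dex, so its 95% interval for Dex ran from -1.28 to 0.83 in water mice and from -1.13 to 0.92 in ZnSO4 mice. A change of about 2-fold in Areg could not have been told from no change.

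Ereg had 329, 184 and 416 normalised counts in water + PBS and 304, 222 and 220 in water + Dex. It had 421, 474 and 461 in ZnSO4 + PBS and 497, 229 and 383 in ZnSO4 + Dex. All 3 ZnSO4 + PBS mice were above all 3 water + PBS mice, by an LFC of 0.55 ± 0.296 that did not pass (adjusted p = 0.34). The ZnSO4 effect in Dex mice was of like size, an LFC of 0.57 with adjusted p = 0.34, and the groups overlapped. For Dex the 95% interval ran from -0.97 to 0.34 in water mice and from -0.94 to 0.35 in ZnSO4 mice. Of the exonic bases of Ereg 3.42% lie opposite the antisense gene Gm19610.

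Hbegf had 194, 166 and 246 normalised counts in water + PBS, 290, 279 and 308 in water + Dex, 254, 333 and 317 in ZnSO4 + PBS and 290, 196 and 289 in ZnSO4 + Dex. The water + PBS group was the lowest, and each single treatment put all 3 mice above it. The LFC was 0.53 ± 0.179 for Dex in water mice (adjusted p = 0.092) and 0.58 ± 0.179 for ZnSO4 in PBS mice (adjusted p = 0.094), so neither passed. Without water + PBS replicate 3 the former passed, at 0.70 and adjusted p = 0.045, and without ZnSO4 + Dex replicate 2 both did, at 0.53 and 0.58 with adjusted p = 0.04 and 0.044. Dex in ZnSO4 mice had an LFC of -0.22 and ZnSO4 in Dex mice one of -0.18, with intervals that include 0.

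No gene passed the test of the interaction of ZnSO4 and Dex, so percent called was 0% over all 15938 genes and 0 of the 10, with a lowest adjusted p of 0.95. At an unadjusted p under 0.05 there were 794 genes, 4.98% of all, and 2 of the 10. These were Errfi1, with an interaction of -0.69 and unadjusted p = 0.0081 in edgeR, and Hbegf, with -0.75 and unadjusted p = 0.012 in edgeR. For both the LFC with Dex was lower in ZnSO4 mice than in water mice, and for both the difference failed the correction. DESeq2 also called 0 genes.

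For ZnSO4 in Dex mice none of the 10 genes passed in edgeR, where 1.83% of all genes were called higher and 2.54% lower. At an unadjusted p under 0.05, Dusp5 was higher and Dusp6 lower. Averaged over both injections, a comparison added after the data had been seen, ZnSO4 raised Errfi1 by an LFC of 0.49 ± 0.108, adjusted p = 0.012, and Dusp5 by 0.31 ± 0.0855, adjusted p = 0.034. That is 2 of 10 higher, where 6.24% of all genes were called, and 0 of 10 lower, where 6.52% were. The Dusp5 call was lost in 7 of the 12 fits without 1 library, with adjusted p up to 0.086. The Errfi1 call was kept in all 12. DESeq2 called Dusp6 lower in this comparison, at an LFC of -0.36 and adjusted p = 0.04, and did not call Dusp5.

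Groups without overlap were counted as a further description. With Dex, 2 of the 10 genes were wholly above and 3 wholly below their controls in water mice, and 2 above and 2 below in ZnSO4 mice, where 14.2% to 15.2% of all genes were so in each direction. With ZnSO4, 4 of the 10 were wholly above in PBS mice (Errfi1, Dusp5, Ereg and Hbegf) and none below, where 12.4% of all genes were above and 12.9% below. In Dex mice 2 were above (Dusp5 and Spry2) and none below, where 12.7% of all genes were above and 13.2% below. The median LFC of the 10 for ZnSO4 was 0.31 in PBS mice and 0.13 in Dex mice, against -0.013 and 0.0074 over all tested genes. These comparisons share groups, so they do not stand for independent evidence.

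Covariation from mouse to mouse was examined among the 10 genes, and no pair passed the correction. As log2 CPM with each group's mean taken away, over 12 mice, Areg and Hbegf had Pearson r = 0.877 and Spearman rho = 0.916, with exact permutation p = 0.0023 and 0.0031 when mice were exchanged within groups. Without the 2 mice farthest from the median of Areg, r was 0.752. For Ereg and Hbegf r was 0.829 (exact permutation p = 0.0085) and rho 0.769 (exact permutation p = 0.016), and r was 0.622 without the 2 farthest mice. For Areg and Ereg r was 0.823 (exact permutation p = 0.053) and rho 0.727 (exact permutation p = 0.069), and r was 0.676 without the 2 farthest. For Errfi1 and Hbegf r was 0.762 (exact permutation p = 0.029) and rho 0.86 (exact permutation p = 0.0023), and r was 0.625 without the 2 farthest. Among all 45 pairs of the 10 genes, 5 had an unadjusted p under 0.05 for r and none an adjusted p under 0.05, with 0.1 as the adjusted p of Areg and Hbegf. These 5 included Dusp1 and Dusp6, with a negative r of -0.634 (exact permutation p = 0.011). They also included Errfi1 and Areg, with r = 0.729 (exact permutation p = 0.044), but not Areg and Ereg. The smallest p that these 1296 orders can give is 0.00077.

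Replicate 2 was the lowest mouse for both Areg and Hbegf in water + PBS, water + Dex and ZnSO4 + Dex, and was also lowest for Ereg in water + PBS and ZnSO4 + Dex. Summed endothelial markers were highest in the same 3 mice of their groups, at 134 against 105 and 107 CPM in water + PBS, 96.2 against 87.4 and 90.0 in water + Dex and 116 against 102 and 109 in ZnSO4 + Dex. This was not particular to endothelium. Summed T cell markers (130.6, 100.2 and 42.64 CPM) and macrophage markers (318.5, 308.3 and 289.3 CPM) were also highest in these 3 mice. Epithelial markers were lowest in 2 of the 3, at 10170 and 8430 CPM, and highest in that of water + Dex, at 11220 CPM. ZnSO4 + PBS went the other way for the ligands. Its replicate 2 also had the highest endothelial (131.9 against 131 and 131.3 CPM), T cell (76.9 CPM) and macrophage (235.9 CPM) sums of its group. Its epithelial sum was the lowest, at 10230 CPM. Yet its normalised counts of Areg (80.5), Ereg (474) and Hbegf (333) were the highest of the group. All 5 endothelial markers were tested and none was at 0 in all libraries. With Dex 1 of them was called lower in each water, beside 4.51% of all genes on water and 7.08% on ZnSO4. The endothelial sums were 105 to 134 CPM in water + PBS and 87.4 to 96.2 CPM in water + Dex. They were 131 to 132 CPM in ZnSO4 + PBS and 102 to 116 CPM in ZnSO4 + Dex. The part of these cells in the ligand values was not tested.

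**Figure D3:**
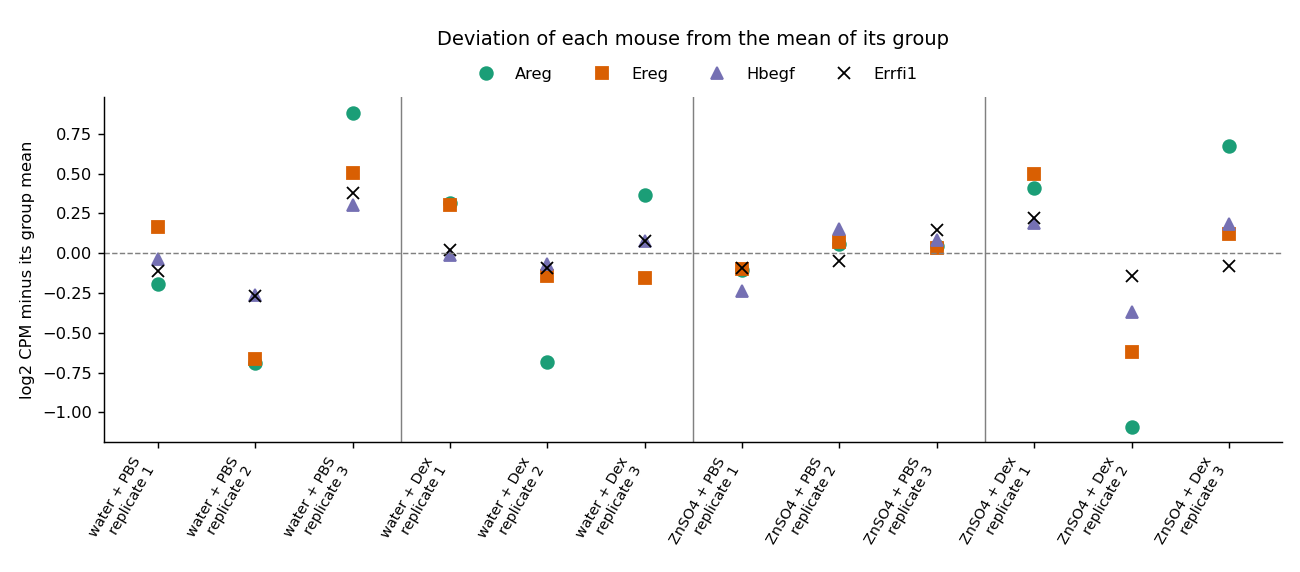
Deviation of log2 CPM from the mean of its group (vertical axis) for the 3 ligand genes and Errfi1 in each of the 12 mice, with grey lines between the groups. In replicate 2 of water + PBS, of water + Dex and of ZnSO4 + Dex all 4 symbols lie below 0, with Areg at -0.69, -0.68 and -1.09. They also lie below 0 in replicate 1 of ZnSO4 + PBS, with Areg at -0.10.

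Among the other ligand genes of the EGF receptor, Tgfa, which encodes transforming growth factor alpha, was the one that rose with Dex. Its normalised counts were 407, 317 and 426 in water + PBS, 1124, 1275 and 1332 in water + Dex, 494, 477 and 459 in ZnSO4 + PBS and 2333, 1471 and 1972 in ZnSO4 + Dex. Every Dex mouse lay above every PBS mouse, and every ZnSO4 + Dex mouse above every water + Dex mouse. The LFC with Dex was 1.70 ± 0.159 in water mice, adjusted p = 4.3e-05, and 2.01 ± 0.158 in ZnSO4 mice, adjusted p = 1.2e-05, and both calls were kept whichever library was left out. The LFC with ZnSO4 in Dex mice was 0.63 ± 0.152, adjusted p = 0.0396, a call that was lost in 9 of 12 fits without 1 library. Per length, Tgfa went from 5.19 to 16.8 RPKM with Dex on water and from 6.46 to 26.1 RPKM on ZnSO4. Its share of the summed RPKM of the 7 ligand genes was 25.3% ± 4.32 (SD, n = 3) in water + PBS, 51.6% ± 4.76 in water + Dex, 22.2% ± 1.77 in ZnSO4 + PBS and 57.0% ± 3.59 in ZnSO4 + Dex. Btc stood between 1.02 and 1.97 RPKM and Egf between 0.113 and 0.389 RPKM, and Epgn had too few counts to be tested.

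**Figure D4:**
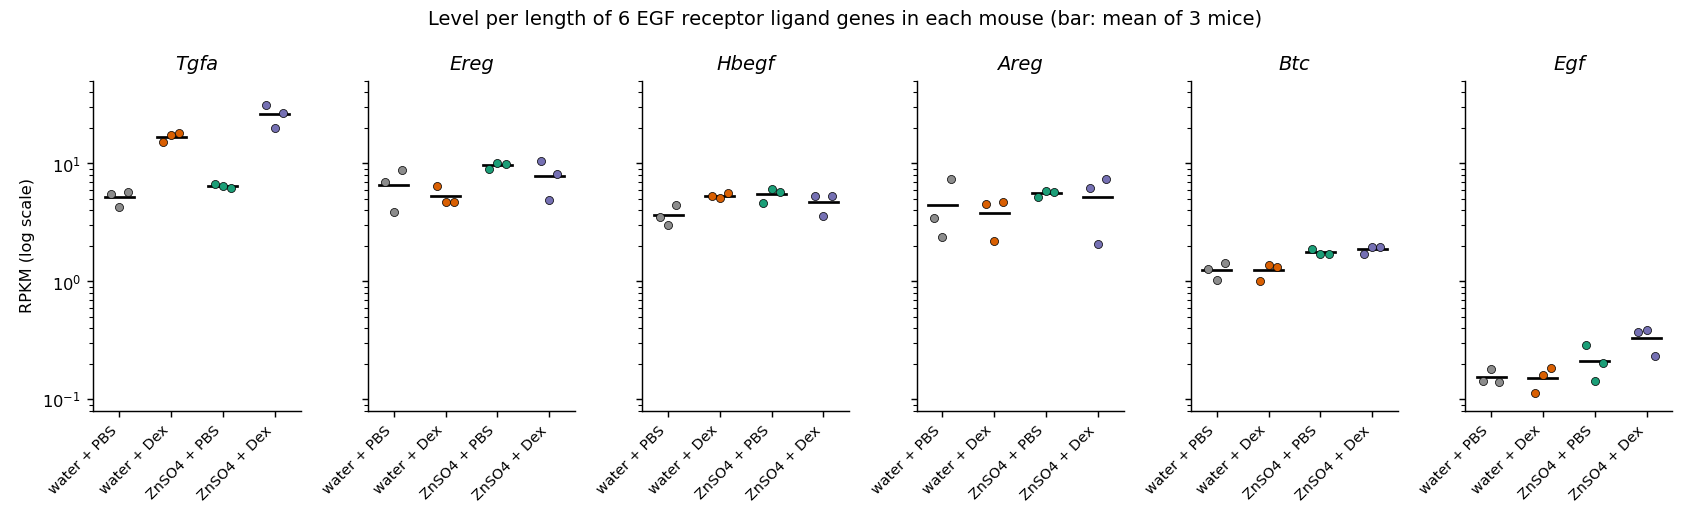
RPKM on a log scale (vertical axis) of 6 EGF receptor ligand genes in the 4 groups, with 1 point per mouse and bars at the group mean. Tgfa stands at 16.8 and 26.1 RPKM on average in the Dex groups, above Ereg, Hbegf and Areg, which lie between 2.09 and 10.6 RPKM in the 12 mice.

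Of the receptors, Erbb2, the partner of the other ErbB receptors that has no known ligand, fell with Dex by an LFC of -0.61 ± 0.0712 in water mice, adjusted p = 0.000218, and of -0.85 ± 0.0713 in ZnSO4 mice, adjusted p = 1.65e-05. Egfr itself rose in ZnSO4 mice, by an LFC of 0.43, adjusted p = 0.0261, a call lost in 5 of 12 fits without 1 library, and had an LFC of 0.31 in water mice, adjusted p = 0.117. Erbb3 was the most abundant receptor gene at 99.6 RPKM over all mice and did not pass with Dex, and Erbb4 had 0 counts in all 12 libraries, which allows up to 3 counts in each. Of the 7 tested receptor and inhibitor genes 1 rose and 1 fell with Dex on water, beside 5.41% and 4.51% of all genes. On ZnSO4 2 rose and 1 fell, beside 6.65% and 7.08% of all genes. The gene that rose on water was Errfi1, which was also among those that rose on ZnSO4. Errfi1 was the only one of the 7 past the test for ZnSO4 in PBS mice.

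Shedding of the ligands needs ADAM proteases and the iRhom proteins that bring ADAM17 to the surface. Of the 4 genes of this list, Rhbdf2 (iRhom2) fell with Dex, by LFCs of -0.53 on water and -0.45 on ZnSO4, calls lost in 4 and 5 of 12 fits without 1 library with adjusted p up to 0.069 and 0.089, and Rhbdf1 (iRhom1) rose in ZnSO4 mice by 0.57. Adam10 was lower with ZnSO4 in Dex mice, by an LFC of -0.38, a call lost in 3 of 12 fits, without each of the water + Dex mice. Adam17 passed none of these tests. Of 9 phosphatase genes tested, only Dusp1, Dusp4 and Dusp5 passed in any of the 4 comparisons. Of 7 Sprouty and Spred genes, Spry3, which is expressed at a low level, fell with Dex by LFCs of -1.46 on water, adjusted p = 0.02, and -1.82 on ZnSO4, adjusted p = 0.00442. The call on water was lost in 5 of 12 fits without 1 library, with adjusted p up to 0.082, and that on ZnSO4 was kept. Spred2 was higher with ZnSO4 in Dex mice, by 0.45, a call lost in 5 of 12 fits with adjusted p up to 0.11.

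In the core of the ERK cascade, 15 genes from adaptors to kinases, Gab1, an adaptor gene (LFC -0.57), and Nras, a Ras gene (LFC -0.27, lost in 3 of 12 fits without 1 library), fell with Dex in ZnSO4 mice. None of the 15 passed for ZnSO4. Of 10 genes of the JNK and p38 branches, Map2k4 fell with Dex in ZnSO4 mice by -0.34, a call lost in 3 of 12 fits without 1 library. Mapk13, which encodes p38 delta, was lower with ZnSO4 by LFCs of -0.47 in PBS mice, lost in 8 of 12 such fits with adjusted p up to 0.13, and -0.51 in Dex mice, lost in 3. Of 14 tested genes that ERK is known to induce, Dex lowered 5 on water, with the largest falls in Junb (LFC -1.14, lost in 5 of 12 fits without 1 library) and Phlda1 (LFC -0.97, lost in 4), and raised Fosl2 (LFC 0.84, lost in 2, without water + PBS replicate 1 or water + Dex replicate 3). On ZnSO4 it lowered 2, Phlda1 (LFC -1.05, lost without ZnSO4 + Dex replicate 1) and Myc (LFC -0.54, lost in 5 fits with adjusted p up to 0.12). ZnSO4 lowered the cyclin gene Ccnd1 by an LFC of -1.14 in PBS mice, kept in all 12 fits, and -0.50 in Dex mice, lost in 5. Over all these lists without the 10 genes, 62 of 66 genes were tested, and Dex raised 3 and lowered 8 on water, where 5.41% of all genes were called higher and 4.51% lower. On ZnSO4 it raised 4 and lowered 8, beside 6.65% and 7.08% of all genes. ZnSO4 raised 0 and lowered 2 in PBS mice, beside 2.11% and 2.54%, and raised 2 and lowered 3 in Dex mice, beside 1.83% and 2.54%.

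**Figure D5:**
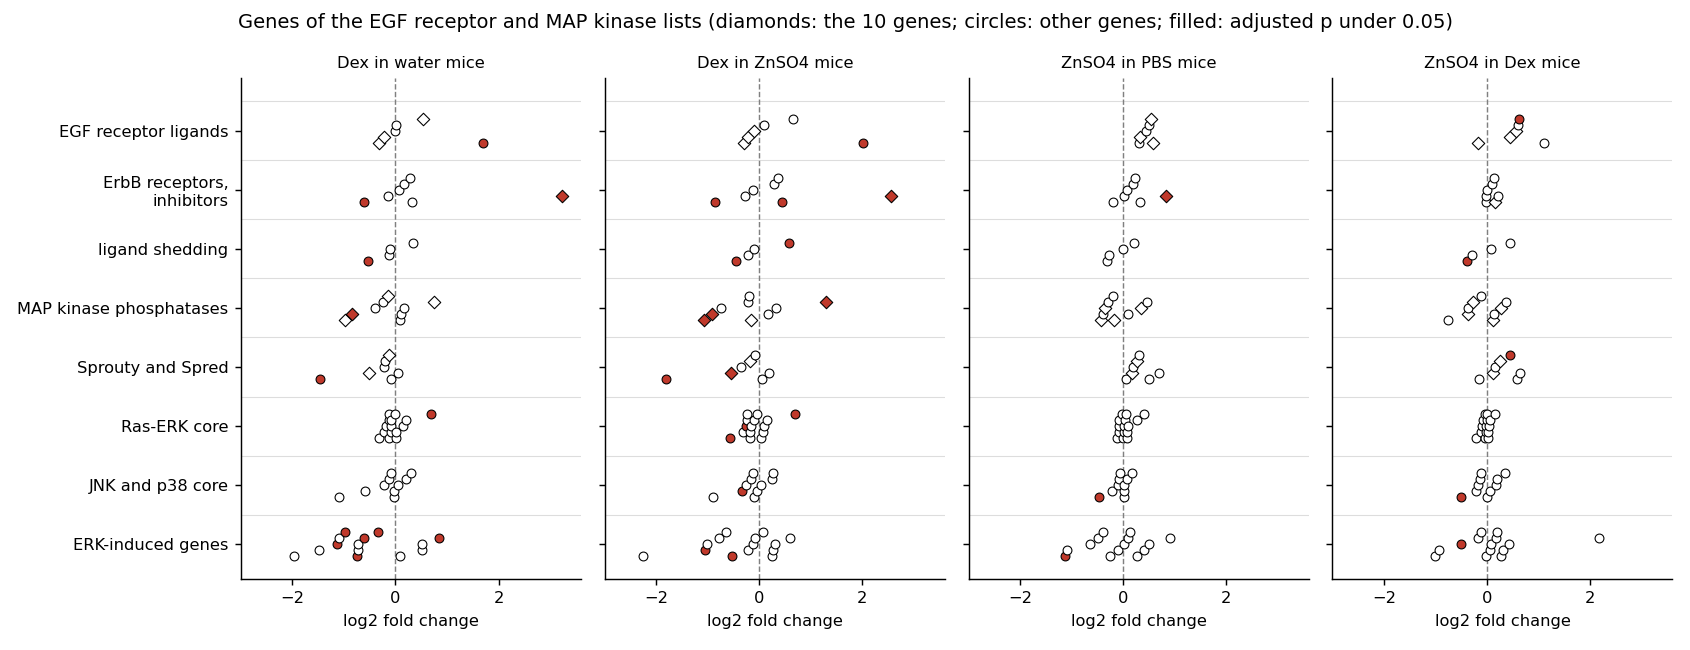
Log2 fold change (horizontal axes) of every tested gene of the 8 pathway lists (rows) in the 4 comparisons, with diamonds for the 10 genes, circles for other genes and filled symbols at adjusted p under 0.05. Most points lie near 0, and the farthest filled ones for Dex are Errfi1 (3.24 on water) and Tgfa (2.01 on ZnSO4) to the right and Spry3 (-1.82 on ZnSO4) to the left.

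Genes whose log2 CPM followed each of the 10 most closely over the 12 libraries were named by Pearson r, as a description in which the 4 groups themselves set much of the likeness. Errfi1 was most like Eif4ebp3 (0.99), Sgk1 (0.99), which is among the Dex check genes, and Kcnv2 (0.989). Dusp1 was most like Adamts1 (0.976), Pdk4 (0.952) and Psd3 (0.95). Dusp5 was most like Esm1 (0.984), a gene of endothelial tip cells, Rarg (0.977) and Arhgef19 (0.972). Spry2 was most like Ap1ar, She and Lzic (0.942 to 0.962), and Dusp4 was close to Gm10425 (0.93) and Slc15a3 (0.923). For the genes that passed no test with Dex the closest genes were less close: Dusp6 reached 0.91 with Tirap, Ereg 0.917 with 9130017K11Rik, Hbegf 0.886 with Gm15998, Spry4 0.842 with Hdgf and Areg 0.839 with Gm44974.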

How the data were processed

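Ileum RNA of 12 mice was sequenced from stranded single-end libraries. Per the labels and the study's methods, the authors trimmed reads with Trimmomatic, mapped them to mm10 with HISAT2 2.0.4, and deposited a table of whole-number counts per gene from featureCounts, from which multimapping reads had been left out. The strand setting is not given in the sources used here, and columns were matched to mice by group code and replicate number, with the code taken from the study's supplement.

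From these counts edgeR 4.0.16 in R 4.3.3 kept genes with filterByExpr (minimum count 10), scaled libraries by TMM and fitted 1 quasi-likelihood model of the 4 group means to 15938 genes. Genes with a Benjamini-Hochberg adjusted p under 0.05 over all of them were called. The 2 averaged comparisons were added later. RPKM used exon lengths from GENCODE for GRCm38. All 10 genes are named, with at most 2 rising and 2 falling genes per pathway list and comparison, and the 3 genes of closest pattern, except that some named by this rule are not reported here. The genes and lists were chosen with earlier results of these data known, so p-values over them alone are not given. GEO's labels call the mice of a group biological replicates. In simulated counts, 54% to 65% of genes with a true log2 fold of 1 were recovered in the 4 comparisons, and 83% to 89% of those with 2. There, 100 genes were changed at each size, fewer in all than were called in any of the 4 real comparisons. These rates therefore need not hold for the real tests. Alternatives were DESeq2 1.42.0, RLE and upper-quartile factors, other filters, a fit with the replicate number as a block, fits of only the groups compared, an LFC cut-off of 0.8, unadjusted p and leaving out each library.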

Additional observations from a re-analysis of the deposited data

Results flagged for a closer look

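Hbegf, the gene of the heparin-binding EGF receptor ligand, stood out because its Dex mice lay on opposite sides of the PBS mean in the 2 waters, although no comparison of Hbegf passed edgeR's test with all 12 mice. On water every Dex mouse lay above the mean of the PBS mice, and on ZnSO4 every Dex mouse lay below it. Likewise every ZnSO4 mouse lay above the mean of the water mice under PBS and below it under Dex. The ZnSO4 + Dex mice had 290.3, 196 and 289.4 normalised counts, against means of 301.2 in ZnSO4 + PBS and 292.2 in water + Dex. Their groups overlapped in both comparisons, with LFCs of -0.22 and -0.18 (edgeR, adjusted p = 0.484 and 0.64). The interaction was -0.754 on the log2 scale (edgeR, unadjusted p = 0.012, adjusted p = 0.95), so it failed the correction over all genes. When each library was left out in turn it stayed between -0.924 and -0.589. The interaction of Errfi1 was -0.69 with the same adjusted p of 0.95, and its Dex effect had the same direction in both waters.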

How the results depend on the processing

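The Dex effects on Errfi1 and Dusp5 kept their direction and their call under every alternative run. For the 10 genes, Dex in water mice lowered 1 by the test as reported and 2 with DESeq2, upper-quartile factors, the replicate block, the B cell covariate, or a filter of 1 count in total or of 10 in each library. ZnSO4 in PBS mice raised 1 as reported, 2 with DESeq2 and 0 with only the groups compared. Averaged over both injections, ZnSO4 raised 2 as reported, 1 with DESeq2, the filter of 1 count or the replicate block, and 0 with the LFC cut-off of 0.8, and lowered 1 with DESeq2. At an unadjusted p under 0.05, Dex in water mice raised 3 and lowered 3, ZnSO4 in PBS mice raised 3, ZnSO4 in Dex mice raised 1 and lowered 1, 2 had an interaction, and ZnSO4 averaged over both injections raised 4 and lowered 1. Of all genes, 11.1% were higher and 11.7% lower at that threshold for Dex in water mice, 9.54% and 10.3% for ZnSO4 in PBS mice, 9.56% and 9.57% for ZnSO4 in Dex mice, 14.3% and 14.1% for ZnSO4 over both, and 4.98% had an interaction. Leaving out 1 library gave 1 to 2 raised and 1 to 2 lowered by Dex in water mice, 1 to 2 raised and 1 to 3 lowered by Dex in ZnSO4 mice, 0 to 2 raised by ZnSO4 in PBS mice, and 1 to 3 raised and 0 to 1 lowered by ZnSO4 over both injections.

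Effects that turned in direction had failed the test. With the B cell covariate the LFC of Dusp6 for Dex in water mice was 0.0058, and with the replicate block the interactions of Areg and Ereg were -0.11 and -0.091. Without 1 library, Dex in water mice gave -0.34 to 0.0066 for Dusp6, -0.26 to 0.028 for Spry4 and -0.52 to 0.38 for Areg, and in ZnSO4 mice -0.30 to 0.016 for Spry4 and -0.45 to 0.28 for Areg. ZnSO4 in PBS mice gave -0.69 to 0.11 for Dusp1, -0.35 to 0.11 for Dusp4 and -0.025 to 0.33 for Spry4, and in Dex mice -0.022 to 0.24 for Dusp1. Interactions ranged from -0.38 to 0.083 for Dusp4, -0.13 to 0.013 for Dusp5, -0.19 to 0.17 for Dusp6, -0.18 to 0.087 for Spry2, -0.22 to 0.13 for Spry4, -0.48 to 0.50 for Areg and -0.25 to 0.29 for Ereg. Averaged effects ranged from -0.34 to 0.14 for Areg with Dex and -0.29 to 0.11 for Dusp1 with ZnSO4. The cause was not tested.

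Of the other 62 pathway genes, Dex in water mice raised 3 and lowered 8 as reported, lowered 3 past the LFC cut-off of 0.8, raised 9 and lowered 13 at an unadjusted p under 0.05, and lowered 3 to 9 without 1 library. Dex in ZnSO4 mice raised 4 and lowered 8, lowered 5 with only the groups compared, raised 1 and lowered 3 past the cut-off, raised 9 and lowered 16 at an unadjusted p, and lowered 5 to 9 without 1 library. ZnSO4 in PBS mice raised 0 and lowered 2, raised 1 with DESeq2, upper-quartile factors or only the groups compared, lowered 1 past the cut-off, raised 8 and lowered 4 at an unadjusted p, and raised 0 to 1 and lowered 1 to 3 without 1 library. ZnSO4 in Dex mice raised 2 and lowered 3, raised 5 with DESeq2 or the filter of 10 counts in each library and 4 with upper-quartile factors, raised 0 and lowered 0 with only the groups compared or past the cut-off, raised 8 at an unadjusted p, and raised 0 to 2 and lowered 0 to 3 without 1 library.

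The deviations of same-numbered mice of different groups had a median r of -0.0557 over 18 pairs, against 0.0225 over 36 others. Over the 18 pairs r ran from -0.359 to 0.457. The sources do not say whether same-numbered mice shared a cage, and these r values cannot tell. The replicate block called Spry2 lower with Dex in water mice (LFC -0.50, adjusted p = 0.049) and lost Dusp5 for the averaged ZnSO4 effect (LFC 0.31, adjusted p = 0.062), and changed no other call among the 10 genes. Upper-quartile factors moved the share of higher calls over all genes from 45.4% to 55.1% for ZnSO4 in PBS mice, from 41.8% to 51.8% in Dex mice and from 48.9% to 60.4% over both. DESeq2 called 510 genes higher with ZnSO4 in PBS mice, against 337. Areg, Spry4 and Dusp4 had the lowest counts of the 10, with SEs of 0.483, 0.216 and 0.318 for Dex in water mice, and the SE of Dusp1, with more counts, was 0.297, so low counts did not by themselves order the precision.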
